A study of Mus musculus with 6 samples.

Results

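The miR-200 family consists of 5 miRNA hairpins encoded in 2 genomic clusters. Mature arms of all 5 were followed here in the kidney inner medulla of mice lacking Dicer1 in aquaporin-2-expressing cells. Members were taken by name: entries called miR-200a, miR-200b or miR-429 (the first cluster) and miR-200c or miR-141 (the second cluster), on either arm. This gave 9 of the 1081 mature miRNA entries measured. The 5p arm of miR-429 was not analysed here. Small RNA libraries were sequenced for 3 DicerAQP2Cre+ mice and 3 control mice, all 1 month old. DicerAQP2Cre+ marks deletion of Dicer1 by a Cre active in cells that express AQP2, a water channel found in principal cells of the collecting duct; the alleles carried by the control mice were not given in the sources used here. The RNA came from the whole inner medulla, so Dicer1 in cells that never expressed AQP2, such as those of thin limbs, vessels and interstitium, was left intact by design. The DicerAQP2Cre+ libraries carry column names CK01 to CK03 in the deposited table; that these stand for the conditional knockout replicates 1 to 3 is inferred from the names, and all directions below depend on it.

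Dicer is the RNase that cuts a precursor hairpin into a short duplex of its 5p and 3p arms, of which one arm is usually retained in an Argonaute protein while the other is degraded. Target mRNAs are recognised mainly by the seed, bases 2 to 8 of the mature miRNA. The miR-200 family is abundant in epithelial cells, including those of the collecting duct, and is best known for repressing the transcription factors Zeb1 and Zeb2, which in turn repress E-cadherin.

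The mature sequences are shown because the family divides by 1 base of the seed. They are RefSeq sequences matched by name for 9 of 9 members on GRCm38.p6, written 5′ to 3′ with the seed in capitals. The members with the seed AAUACUG were
mmu-miR-200b-3p (chr4:156055685-156055706, minus strand): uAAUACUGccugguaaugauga
mmu-miR-429-3p (chr4:156053916-156053937, minus strand): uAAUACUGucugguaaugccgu
mmu-miR-200c-3p (chr6:124718324-124718346, minus strand): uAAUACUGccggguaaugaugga
and those with the seed AACACUG were
mmu-miR-200a-3p (chr4:156054911-156054932, minus strand): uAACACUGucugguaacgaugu
mmu-miR-141-3p (chr6:124717917-124717938, minus strand): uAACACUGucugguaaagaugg
Counting from 1 at the 5′ end and reading from miR-200b-3p to miR-141-3p, the seeds differed by U4C. Each seed was thus encoded in both clusters, and no entry outside the family carried either among the 916 of 1081 that matched RefSeq by name. The closest 3p arms were miR-200b-3p and miR-200c-3p, which differed at 2 of 22 compared positions (U11G and A22G), and miR-200a-3p and miR-141-3p, which also differed at 2 (C17A and U22G). The counting tool and its mismatch setting were not given in the sources used here, so reads with sequencing errors could have been split between such pairs.

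The 5p arms are shown for the comparison of the arms of 1 hairpin, again with bases 2 to 8 in capitals.
mmu-miR-200b-5p: cAUCUUACugggcagcauugga
mmu-miR-200a-5p: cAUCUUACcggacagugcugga
mmu-miR-141-5p: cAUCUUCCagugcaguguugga
mmu-miR-200c-5p: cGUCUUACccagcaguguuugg
miR-200b-5p and miR-200a-5p shared bases 2 to 8, whereas miR-141-5p and miR-200c-5p each had their own. The positions of both arms are seen in the hairpins of Mir200b (chr4:156055681-156055750) and Mir141 (chr6:124717914-124717985), both on the minus strand of GRCm38.p6, in which the 5p arm and then the 3p arm are in capitals.
Mir200b: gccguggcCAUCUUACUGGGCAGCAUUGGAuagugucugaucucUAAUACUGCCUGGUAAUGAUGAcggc
Mir141: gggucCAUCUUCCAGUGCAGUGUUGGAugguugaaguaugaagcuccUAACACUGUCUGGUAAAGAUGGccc
In the direction of transcription Mir200b, Mir200a and Mir429 lay within 1846 bases of chromosome 4, with 695 bases between the first pair of hairpins and 908 between the second. In the GENCODE annotation of GRCm38 all 3 were in introns of Ttll10, and they overlapped the non-coding transcript Gm13648, with Mir429 in its exon. Mir200c and Mir141 were 336 bases apart on chromosome 6, in an intron of the non-coding Gm15884, and Mir141 also overlapped an exon of Gm29008, a transcript of unassigned coding status.

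Library depth was 2934851 to 7614853 recovered miRNA reads, the lowest and the highest both being DicerAQP2Cre+ libraries. Values are normalized reads, that is, reads per mature miRNA divided by a size factor for each library. Differences were tested with limma on log2(value + 1) over the 461 entries whose values averaged 5 or more, and calls were made where the p adjusted by Benjamini-Hochberg over all of them was under 0.05. Of the 9 members 8 passed this filter, and miR-200c-5p did not. In several members DicerAQP2Cre+ replicate 3 departed from its group, so results are also given without this library.

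All 5 guide (3p) arms of the family fell in DicerAQP2Cre+ inner medulla, to between 41.6% and 54.1% of the control mean. These were miR-141-3p, miR-429-3p, miR-200b-3p, miR-200a-3p and miR-200c-3p. None of the 3 tested 5p arms passed the test, with means at 55.4% to 68.2% of control. Thus 5 of 8 tested members (62.5%) were called lower and 0 higher, where 4.99% of all 461 entries were called lower and 3.47% higher; edgeR and DESeq2 also called 0 members higher, and 0 were higher at an unadjusted p under 0.05. The median log2 fold change of the 8 members was -0.93, and that of all tested entries was -0.01. In all 8 members the DicerAQP2Cre+ values lay below all control values, a separation seen in 18.0% of tested entries. In these bulk libraries fewer cells carrying the family and less of it per cell cannot be told apart.

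**Figure D1:**
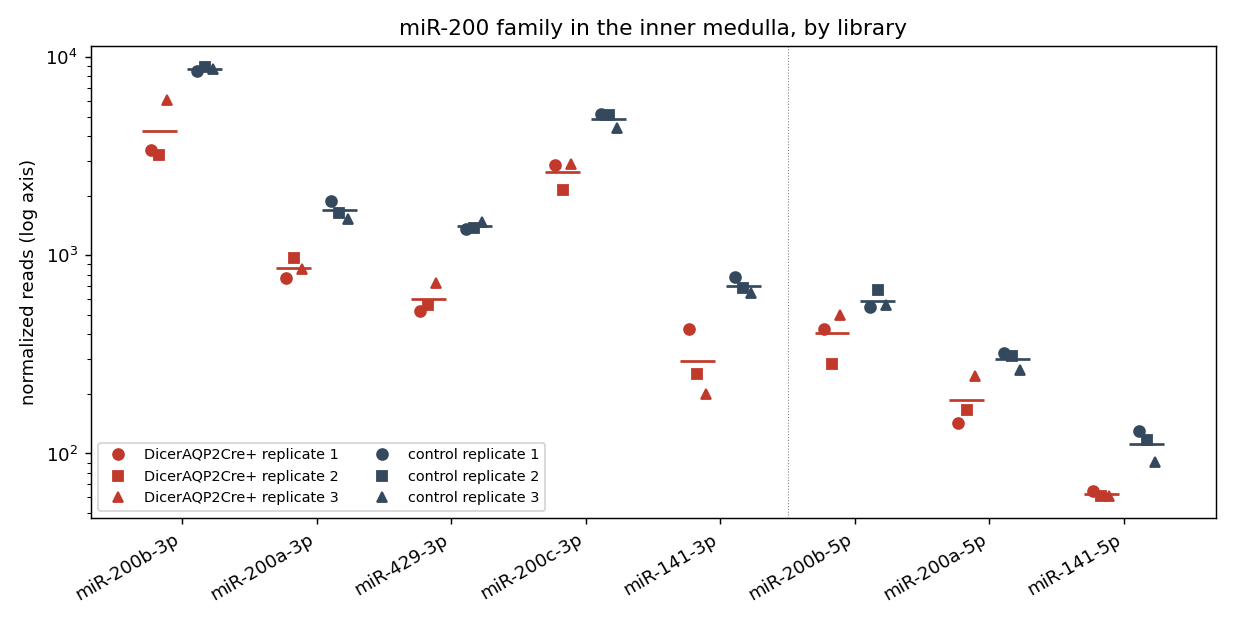
Normalized reads (log axis) of the 8 tested members in each library, with the 3 DicerAQP2Cre+ libraries left of the 3 control libraries, 1 marker shape per replicate number and horizontal lines at the group means. Every DicerAQP2Cre+ point lies below every control point of the same member; the narrowest gap is that of miR-200a-5p, with 246 in DicerAQP2Cre+ replicate 3 and 263 in control replicate 3.

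In the chromosome 4 cluster, miR-200b-3p, the most abundant member, had 3399, 3200 and 6108 normalized reads in DicerAQP2Cre+ replicates 1 to 3, against 8530, 8875 and 8690 in control replicates 1 to 3. The controls were nearly level, whereas DicerAQP2Cre+ replicate 3 was well above the other libraries of its group and still below every control. The mean was 4236 ± 1625 in DicerAQP2Cre+ samples and 8698 ± 172 in controls (SD, n = 3 each), 2.05-fold lower. The log2 fold change was -1.10 ± 0.25 (SE, limma adjusted p = 0.0188), and without DicerAQP2Cre+ replicate 3 it was -1.40.

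miR-429-3p, which has the same seed as miR-200b-3p, stood at 523, 560 and 728 in DicerAQP2Cre+ libraries, against 1360, 1375 and 1469 in control libraries. Replicate 3 was again the highest of the DicerAQP2Cre+ libraries, at less distance from the others. With means of 604 ± 109 in DicerAQP2Cre+ samples and 1401 ± 59.0 in controls it was 2.32-fold lower (log2 fold change -1.23 ± 0.21, limma adjusted p = 0.0126), the smallest adjusted p in the family.

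miR-200a-3p, the cluster's member with the other seed, had 766, 974 and 849 normalized reads in DicerAQP2Cre+ libraries, against 1887, 1636 and 1526 in control libraries. Here DicerAQP2Cre+ replicate 3 lay between the other libraries of its group. It averaged 863 ± 105 in DicerAQP2Cre+ samples and 1683 ± 185 in controls (log2 fold change -0.96 ± 0.20, limma adjusted p = 0.0164).

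In the chromosome 6 cluster, miR-200c-3p had 2864, 2146 and 2891 normalized reads in DicerAQP2Cre+ libraries, against 5150, 5081 and 4375 in control libraries. The lowest value was that of DicerAQP2Cre+ replicate 2, the shallowest library, and the groups did not overlap. Its mean was 2634 ± 423 in DicerAQP2Cre+ samples and 4869 ± 428.6 in controls. Its change, -0.90 ± 0.20 on the log2 scale (limma adjusted p = 0.0174), was the smallest among the 3p arms.

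miR-141-3p, processed from the neighbouring hairpin, had 425, 253 and 199 normalized reads in DicerAQP2Cre+ libraries, against 781, 684 and 644 in control libraries. DicerAQP2Cre+ replicate 3 was the lowest of the 6 libraries for this member and the highest of its group for miR-200b-3p. The mean of 292 ± 118 in DicerAQP2Cre+ samples against 703 ± 70.8 in controls was 2.40-fold lower, the largest fold difference in the family (log2 fold change -1.33 ± 0.29, limma adjusted p = 0.0169). Without DicerAQP2Cre+ replicate 3 it was -1.09.

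The 5p arms are the less abundant strands of these hairpins. miR-200b-5p had 425, 284 and 501 normalized reads in DicerAQP2Cre+ libraries, against 548, 665 and 559 in control libraries. DicerAQP2Cre+ replicate 3 was close to the lowest control, and its change of -0.58 ± 0.25 on the log2 scale did not pass (limma adjusted p = 0.164). miR-200a-5p had 143, 167 and 246 in DicerAQP2Cre+ libraries, against 321, 310 and 263 in control libraries. Again DicerAQP2Cre+ replicate 3 approached the controls, and the log2 fold change was -0.72 ± 0.26 (limma adjusted p = 0.111).

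miR-141-5p was uniform in DicerAQP2Cre+ libraries, at 64.4, 60.7 and 61.3 normalized reads, against 129, 116 and 91.0 in control libraries. These values rest on 87, 31 and 60 reads in DicerAQP2Cre+ libraries and on 168, 148 and 94 reads in control libraries. Its log2 fold change was -0.83 ± 0.25 (limma adjusted p = 0.0701), whereas DESeq2 called it (adjusted p = 0.0341). Without DicerAQP2Cre+ replicate 3 all 3 of these 5p arms passed in limma, with adjusted p of 0.0267 for miR-200b-5p, 0.00713 for miR-200a-5p and 0.0390 for miR-141-5p. Of all entries 13.4% were then called lower. The log2 fold change of miR-141-5p was hardly altered by this, at -0.82, and its unadjusted limma p was 0.00803, against 0.00766 with all libraries. DicerAQP2Cre+ replicate 3 was singled out for its values in several members, so these passes are a description. With any other single library left out, none of these 5p arms passed in limma (adjusted p of 0.0976 to 0.460).

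miR-200c-5p was at the limit of detection, with 5, 2 and 0 reads in DicerAQP2Cre+ libraries and 5, 5 and 4 reads in control libraries. A count of 0 in DicerAQP2Cre+ replicate 3 allows up to 3 reads, or 3.06 normalized reads. No library of either genotype held more than 5 reads of it, so a difference was not detectable at this depth.

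**Figure D2:**
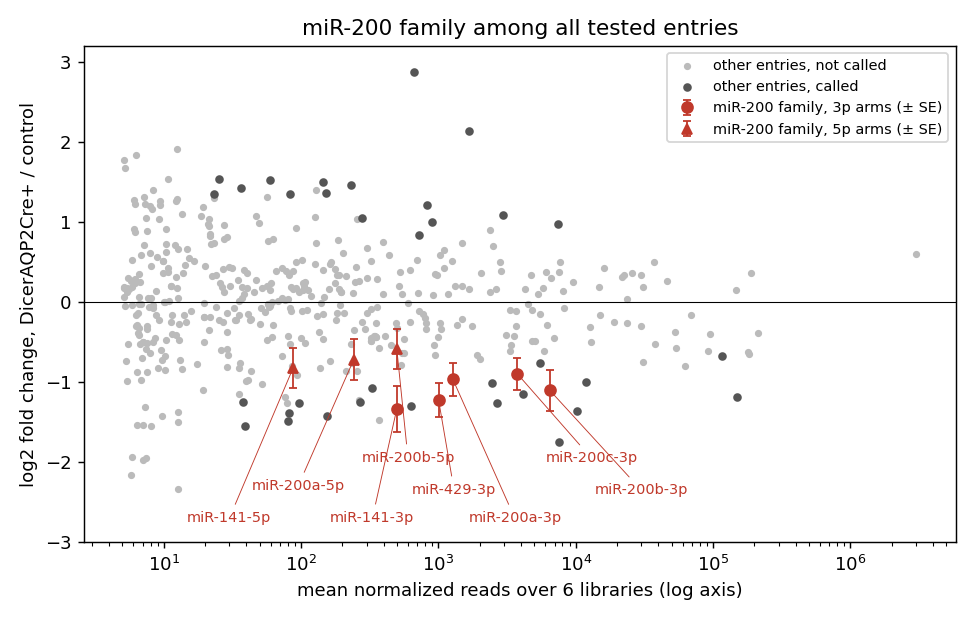
Log2 fold change of DicerAQP2Cre+ over control against mean normalized reads (log axis) for the 461 tested entries, with the 8 tested family members in red (3p arms as circles, 5p arms as triangles, bars ± SE). The 8 members lie between -1.33 and -0.58, and the median of all entries is -0.01.

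The calls of the 3p arms depended on single libraries, while their direction did not. Without control replicate 2, and likewise without control replicate 3, limma called 0 of the 8 members (6 and 7 of them at an unadjusted p under 0.05). It then called 0 of all 461 entries in either direction, where 43 and 50 were lower and 40 and 46 higher at an unadjusted p under 0.05. Without control replicate 1 it called 1 member, miR-429-3p, and 2.82% of all entries lower. Without DicerAQP2Cre+ replicate 2 it called 2 members, miR-429-3p and miR-200a-3p, and 2.17% of all entries lower. Without DicerAQP2Cre+ replicate 1 it called 4, losing miR-200b-3p, and 6.72% of all entries lower, and without DicerAQP2Cre+ replicate 3 all 8. Without the mean-variance trend miR-429-3p was the 1 member called, beside 2.39% of all entries lower.

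Libraries of 1 genotype mostly differed by more than counting error. For miR-200b-3p the coefficient of variation was 38.4% in DicerAQP2Cre+ samples, where the read numbers alone would give 1.67%, and 1.98% in controls, where they would give 0.983%. For miR-141-3p it was 40.4% in DicerAQP2Cre+ samples, against 6.29% from counting, and 10.1% in controls, against 3.45%. Among the 8 tested members miR-141-5p was the exception, with a coefficient of variation in DicerAQP2Cre+ samples of 3.13% where counting alone would give 14.1%.

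The rank of the members by level changed little within the family. By mean normalized reads per mature sequence of 22 or 23 bases, the order in both genotypes was miR-200b-3p, miR-200c-3p, miR-200a-3p, miR-429-3p and miR-141-3p among the 3p arms. miR-200b-3p was entry number 53 of 1081 by mean level in DicerAQP2Cre+ samples and number 36 in controls. In DicerAQP2Cre+ samples miR-200b-5p, with 403 ± 110, stood above miR-141-3p, with 292 ± 118, and in controls below it, with 591 ± 64.4 against 703 ± 70.8; the values of these neighbours overlapped in both genotypes. The values of miR-200a-3p and miR-429-3p did not overlap in either genotype.

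As a share of all reads, the 9 members together made up 0.153%, 0.133% and 0.199% in DicerAQP2Cre+ replicates 1 to 3, against 0.359%, 0.384% and 0.370% in control replicates 1 to 3. The exact 95% binomial intervals, which cover counting error only, were 0.150% to 0.156%, 0.129% to 0.137% and 0.195% to 0.203% in the DicerAQP2Cre+ libraries. The family's share in DicerAQP2Cre+ samples was thus 43.6% of that in controls, and its summed normalized reads were 50.6% of those in controls. Shares depend on miR-181a-5p, the most abundant entry, which took 58.2% to 66.8% of reads in DicerAQP2Cre+ libraries and 43.3% to 52.8% in control libraries. Among all other reads, the family held 0.434 ± 0.0391% in DicerAQP2Cre+ samples and 0.716 ± 0.0567% in controls, or 60.5% of the control share.

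Both clusters had lower sums in every DicerAQP2Cre+ library than in any control library. The Mir200b, Mir200a and Mir429 cluster summed to 6291 ± 1855 normalized reads in DicerAQP2Cre+ samples and 12672 ± 177 in controls, which is 49.6% of control. The Mir200c and Mir141 cluster summed to 2991 ± 468 in DicerAQP2Cre+ samples and 5688 ± 505 in controls, which is 52.6% of control. The chromosome 4 cluster supplied 61.0% to 72.8% of family reads in DicerAQP2Cre+ libraries and 67.6% to 71.0% in control libraries.

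Grouped by seed instead, the 3p arms with AAUACUG summed to 7473 ± 2002 in DicerAQP2Cre+ samples and 14968 ± 403 in controls, which is 49.9% of control. Those with AACACUG summed to 1155 ± 94.5 in DicerAQP2Cre+ samples and 2386 ± 256 in controls, which is 48.4% of control. The AAUACUG group was the larger in every library, with 77.2% to 84.0% of family reads in DicerAQP2Cre+ libraries and 80.4% to 82.5% in control libraries. The AACACUG group held 13.8%, 16.0% and 9.05% of family reads in DicerAQP2Cre+ replicates 1 to 3, against 12.3% to 14.3% in control libraries, and its mean share was 12.97% in DicerAQP2Cre+ samples and 12.98% in controls.

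Differences in change between members were tested pair by pair. For each of the 10 pairs of 3p arms the log2 difference between both members was taken in each library and compared between genotypes by an exact two-sided permutation test, whose smallest possible p with 3 libraries a group is 0.1. The widest difference in log2 fold change was between the neighbours miR-200c-3p and miR-141-3p, at 0.44 ± 0.33 (SE, exact permutation p = 0.3, adjusted over 10 pairs 0.9). For miR-429-3p and miR-200c-3p, which share a seed and lie on different chromosomes, it was -0.33 ± 0.20 (exact permutation p = 0.1, adjusted 0.9), and this was the 1 pair whose groups did not overlap. For miR-200b-3p and miR-200c-3p it was -0.21 ± 0.25, and for miR-200b-3p and miR-429-3p of the same cluster 0.12 ± 0.17. No pair was shown to differ at this number of libraries.

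The arms of the same hairpin were compared in the same way. The ratio of miR-200b-3p to miR-200b-5p was 8.01, 11.3 and 12.2 in DicerAQP2Cre+ replicates 1 to 3, against 15.6, 13.3 and 15.5 in control replicates 1 to 3. All 3 DicerAQP2Cre+ ratios were lower than any control ratio. The log2 difference was 3.36 ± 0.32 in DicerAQP2Cre+ samples and 3.88 ± 0.13 in controls (SD, n = 3 each), a change of -0.52 ± 0.20 with an exact permutation p of 0.1, the smallest this design allows, and 0.3 adjusted over 3 hairpins. Such a drop without overlap occurred in 9.82% of the 112 hairpins with both arms tested, and the opposite in 12.5%.

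For miR-200a the ratio of 3p to 5p was 5.36, 5.85 and 3.45 in DicerAQP2Cre+ libraries, against 5.87, 5.28 and 5.80 in control libraries. DicerAQP2Cre+ replicates 1 and 2 were within the control range, and replicate 3 was below it (change in log2 difference -0.25 ± 0.24, exact permutation p = 0.6). For miR-141 the ratio was 6.61, 4.16 and 3.25 in DicerAQP2Cre+ libraries, against 6.05, 5.88 and 7.07 in control libraries. Here DicerAQP2Cre+ replicate 1 lay within the control range and the other libraries of its group below it (change -0.50 ± 0.31, exact permutation p = 0.3). The arms of miR-200c were not compared, because of the few reads of its 5p arm.

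**Figure D3:**
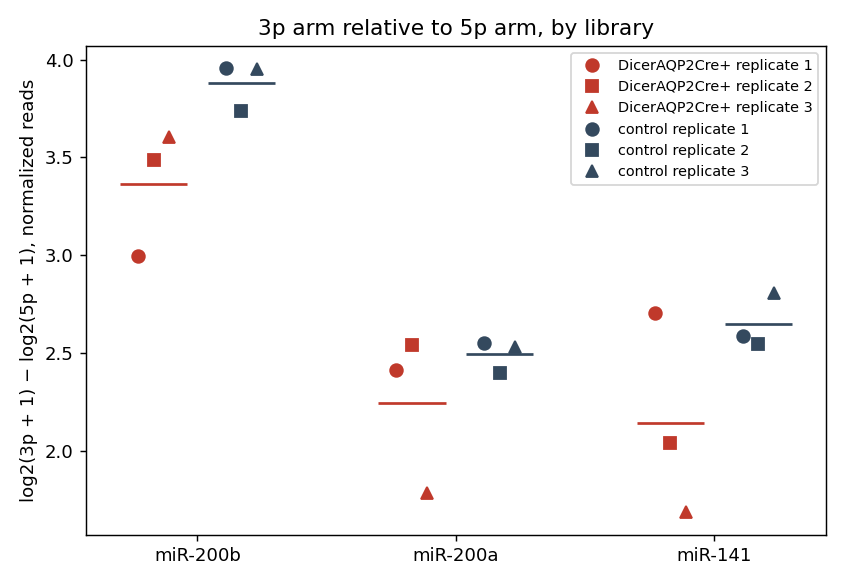
Log2(3p + 1) minus log2(5p + 1) of normalized reads for the 3 hairpins with both arms tested, by library, with DicerAQP2Cre+ left of control and horizontal lines at the group means. For miR-200b the DicerAQP2Cre+ points (mean 3.36) lie below all control points (mean 3.88), and for miR-200a and miR-141 the groups overlap.

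DicerAQP2Cre+ replicate 3 did not differ from its group in the same way for every member. Relative to the control mean on the log2 scale, miR-200b-3p stood at -0.51 in this library, against -1.36 and -1.44 in DicerAQP2Cre+ replicates 1 and 2. miR-200a-5p stood at -0.27, against -1.05 and -0.83. In the other direction miR-141-3p stood at -1.81, against -0.72 and -1.47. miR-200c-3p, from the same cluster as miR-141-3p, stood at -0.75, against -0.76 and -1.18.

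The entries most like miR-200b-3p over the 6 libraries were ranked by the root mean square difference of log2(value + 1), each entry being centred on its own mean. Among 460 other tested entries the nearest was miR-30d-5p, a kidney epithelial miRNA, at 0.11. Its 70127, 77222 and 134758 normalized reads in DicerAQP2Cre+ libraries, against 188464, 200307 and 227539 in control libraries, show the same rise in DicerAQP2Cre+ replicate 3 over the others of its group. The next were miR-31-5p at 0.13, the family's own miR-429-3p at 0.18, miR-29a-3p at 0.19, miR-6954-3p at 0.21 and miR-7046-3p at 0.21. The family's remaining tested members followed at ranks 11 to 142, with miR-141-3p the farthest at 0.59. All entries share the same libraries and size factors, so this ranking is a description.

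Of all 461 tested entries 4.99% were called lower and 3.47% higher, which is the background for the counts that follow. The miR-30 family, which is also abundant in kidney epithelium, had 7 of 11 tested members called lower and 0 higher, with a median log2 fold change of -1.08. Beside the log2 fold change of -1.10 ± 0.25 of miR-200b-3p, its most abundant member, miR-30d-5p, fell by 1.19 ± 0.25 on the log2 scale (limma adjusted p = 0.0162). Among other epithelial miRNAs, 1 of 8 tested entries was called lower and 1 higher, 4 had a log2 fold change below 0, and the median was -0.10. The lower one was miR-31-5p (log2 fold change -1.26 ± 0.22, limma adjusted p = 0.0126) and the higher one miR-375-3p (0.84 ± 0.22, adjusted p = 0.0340). The most abundant of this list by the mean over all 6 libraries was miR-205-5p, which like the miR-200 family represses Zeb1 and Zeb2. It had 13188, 15839 and 27012 normalized reads in DicerAQP2Cre+ libraries, against 12267, 12545 and 15198 in control libraries. The groups overlapped, and a change of 0.42 ± 0.26 on the log2 scale did not pass (limma adjusted p = 0.318). By the control mean the first was miR-182-5p, with 15755 ± 1623 in DicerAQP2Cre+ samples and 13896 ± 1807 in controls, where miR-205-5p had 18680 ± 7337 and 13337 ± 1618.

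The background of 4.99% called lower and 3.47% called higher applies here too. Of 14 tested miRNAs linked to epithelial-mesenchymal transition in either direction, 2 were called lower and 1 higher, with a median log2 fold change of -0.48. These were miR-9-5p, which represses E-cadherin (-1.30 ± 0.22, limma adjusted p = 0.0126), miR-29a-3p, which represses collagens (-1.0 ± 0.19, adjusted p = 0.0136), and miR-214-3p (2.14 ± 0.41, adjusted p = 0.0148). miR-10b-5p, the most abundant of them, did not pass (-0.58 ± 0.40). Of the 2 tested cortical tubule miRNAs 1 was called lower, miR-194-5p (-1.43 ± 0.33, limma adjusted p = 0.0196). The more abundant one, miR-192-5p, at -0.54 ± 0.28, did not pass. A further kidney tubule miRNA in none of the lists, miR-204-5p, went the other way. Its log2 fold change was 0.59 ± 0.23, which did not pass (limma adjusted p = 0.130). All its DicerAQP2Cre+ values lay above all control values, a separation seen in 15.6% of tested entries.

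Markers of other cell types were set beside the family, with the same background of 4.99% called lower and 3.47% called higher. The 6 stromal entries summed to 25482 to 36541 normalized reads in DicerAQP2Cre+ libraries and 21355 to 22819 in control libraries. Most of this sum was miR-143-3p, with 24153 ± 4158 in DicerAQP2Cre+ samples and 19328 ± 1114 in controls. Of the 6 stromal entries 2 were called higher, miR-214-3p and miR-145a-5p, and 0 lower. The remaining entries did not pass, the most abundant, miR-143-3p (log2 fold change 0.31 ± 0.19), among them. Stromal miR-199a-3p was left out of this list because it was entered jointly with miR-199b-3p. That joint entry was at 0.71 ± 0.23 in log2 units and did not pass (limma adjusted p = 0.0915). The endothelial miR-126a, with 2 arms tested, summed to 830 to 1245 in DicerAQP2Cre+ libraries and 961 to 1229 in control libraries, and limma, edgeR and DESeq2 called 0 arms (0 at an unadjusted p under 0.05). Of 4 tested leukocyte entries limma and edgeR called 0 (1 at an unadjusted p under 0.05), and DESeq2 called 1 lower. Their sum, nearly all miR-150-5p, was 16034 to 38510 in DicerAQP2Cre+ libraries and 12703 to 35681 in control libraries. The list was split in direction. miR-155-5p was lower, at -1.47 ± 0.41 (limma adjusted p = 0.0512). Log2 fold changes above 0 were those of miR-223-3p (1.17 ± 0.53), miR-150-5p (0.34 ± 0.42) and miR-142a-5p (0.28 ± 0.73). miR-142a-3p, a defining leukocyte miRNA, was at 0 in 5 of the 6 libraries. The other arm of its hairpin, miR-142a-5p, was above 0 in all 6, at 7.41 ± 7.73 in DicerAQP2Cre+ samples and 4.90 ± 3.11 in controls. The erythroid miR-451a averaged 18.7 ± 7.07 in DicerAQP2Cre+ samples and 23.8 ± 7.23 in controls. A far more abundant erythroid marker, miR-486a-5p, was left out of this list because it was entered jointly with miR-486b-5p. The mean of that joint entry over the 6 libraries was 94877 normalized reads. Between genotypes it differed by -0.40 ± 0.24 in log2 units, which limma left uncalled (adjusted p = 0.316). The part of the higher stromal sum in the lower miR-200 values was not tested.

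**Figure D4:**
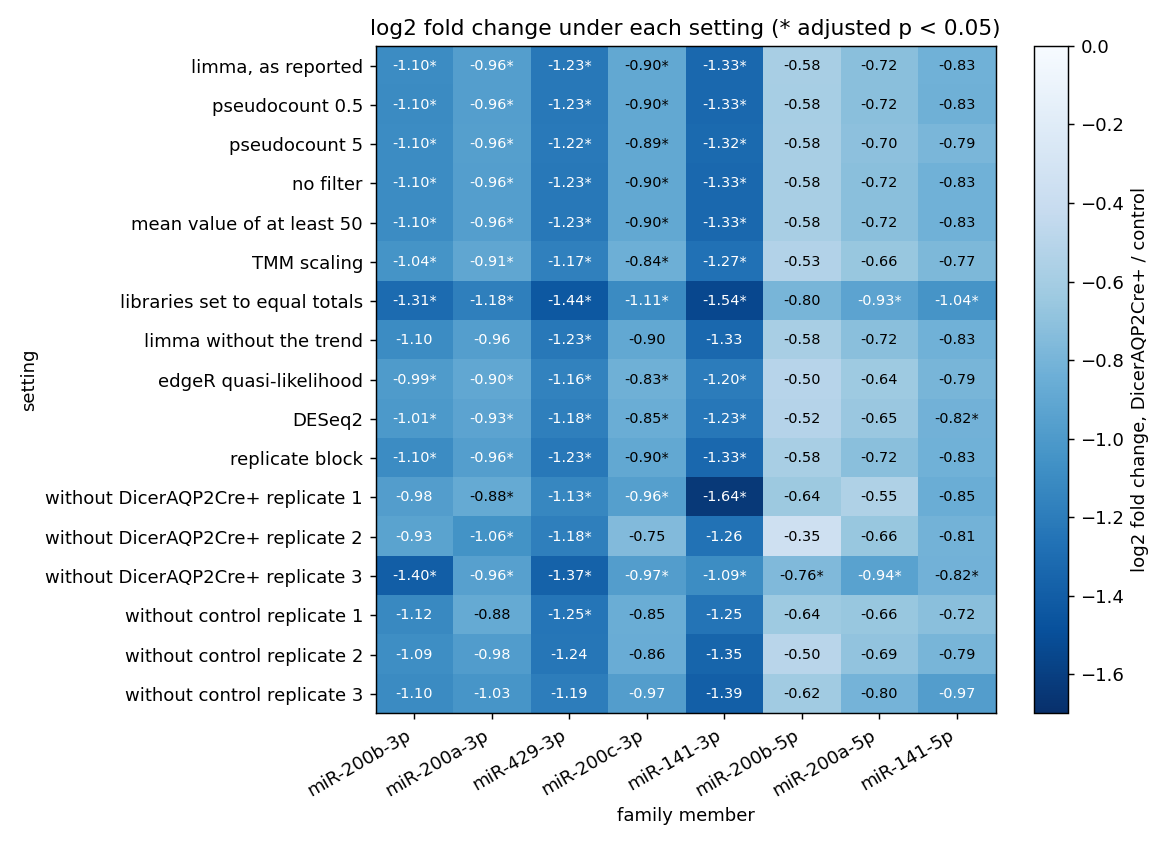
Log2 fold change of DicerAQP2Cre+ over control for each tested member (columns) under each setting (down the page), with darker blue for lower values and an asterisk where the adjusted p was under 0.05. All values are below 0, and they range from -1.64 (miR-141-3p without DicerAQP2Cre+ replicate 1) to -0.35 (miR-200b-5p without DicerAQP2Cre+ replicate 2).

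The scaling of the libraries moved the size of the change but not its direction. With libraries set to equal totals, the median log2 fold change of all tested entries was -0.21 in place of -0.01, 10.2% of entries were called lower, and the members lay between -1.54 and -0.80, with 7 of 8 called. Relative to the median under each scaling, miR-200b-3p was lower by 1.11 with equal totals and by 1.09 with the deposited size factors. By edgeR 5 of 8 members were called lower and by DESeq2 6 of 8, where these tools called 4.99% and 6.72% of all entries lower.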

How the data were processed

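Small RNA libraries from 3 DicerAQP2Cre+ and 3 control inner medullas were made with a TruSeq small-RNA protocol from total RNA, per the labels' protocols. The deposited signal values are read numbers for each mature miRNA over a library size factor; 100% of values were whole reads within a tolerance of 0.01 read. FastQC 0.11.3 and DESeq2, and the build mm9, are listed in the submitters' processing notes; the sources used here give no aligner or miRNA annotation. Members and comparison lists were chosen with earlier results of these data known. Named entries are the 9 members, the 5 entries outside the family most like miR-200b-3p, and, of each list, the called and the most abundant entries. Lists were matched by exact name, so miR-199a-3p and miR-486a-5p, entered under joint names, fell outside them. These, miR-204-5p, miR-142a-3p, miR-142a-5p, miR-155-5p and miR-223-3p were named after their values were seen.

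The two-sided main test, over 461 entries, was limma 3.58.1 (R 4.3.3) with a mean-variance trend, applied to log2(value + 1); 620 lay below the filter. Fold changes are on this scale, which understates low entries. edgeR 4.0.16 and DESeq2 1.42.0 on recovered reads, with other pseudocounts, filters, scalings, a replicate block and left-out libraries, were alternatives. The main limma test, edgeR and DESeq2 were also run on simulated data, and the other alternatives were not. Replicates were separate mice, per the series design. Sequences are RefSeq (GRCm38.p6), not the build of the notes.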

Additional observations from a re-analysis of the deposited data

How the results depend on the processing

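All 8 tested members kept a log2 fold change below 0 in all 16 alternatives. Members called lower numbered 5, against 1 without the trend, and 0 to 8 with 1 library left out, where fewer samples remain. Among all entries, 23 were called lower and 16 higher, against 47 lower with equal totals, 11 lower and 7 higher without the trend, 29 higher by DESeq2, and 0 to 62 lower and 0 to 43 higher with 1 library left out. The comparison lists had 11 entries called lower and 3 higher, against 6 and 0 without the trend, and 0 to 18 and 0 to 6 with 1 library left out. With the replicate number as a block, limma still called 5 members lower (18 entries lower and 14 higher); the deviations of same-numbered libraries from their group means correlated at -0.06, 0.01 and 0.06 over entries, and not every library correlated best with its own number. Between 3p arms, the difference in log2 fold change turned in 5 pairs with 1 library left out. It ranged between -0.30 and 0.081 for miR-200a-3p minus miR-200c-3p, where leaving out DicerAQP2Cre+ replicate 1 or 3 turned it, and between -0.12 and 0.44 for miR-200a-3p minus miR-200b-3p, where DicerAQP2Cre+ replicate 2 did. DicerAQP2Cre+ replicate 3 turned miR-200b-3p minus miR-429-3p (-0.029 to 0.25), miR-200b-3p minus miR-141-3p (-0.31 to 0.66) and miR-429-3p minus miR-141-3p (-0.28 to 0.51). The cause was not tested. The family's share of reads without miR-181a-5p was 0.434% in DicerAQP2Cre+ samples and 0.716% in controls, against 0.162% and 0.371% of all reads. Depth limits miR-200c-5p.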
